A study of Homo sapiens with 23 samples.

Results

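POU3F2 (also called BRN2) and POU3F3 (also called BRN1), transcription factors of POU class III, were followed across the RNA-seq libraries of human thalamus organoids (ThOs). They are 2 of the 9497 genes that every library lists. They were chosen by their values, since POU3F3 was lower in the organoids labelled KO than in those labelled WT at day 25, and POU3F2 was chosen with it as a member of the same class. Differences that use the KO or WT libraries of day 25 are therefore given as a description, with no test. The organoids were grown from the human embryonic stem cell line H1. WT organoids came from unedited H1 cells, and KO organoids from H1 cells whose c-JUN gene had been targeted with CRISPR/Cas9. OE organoids came from the c-JUN knockout with c-JUN added back, by the study's methods from a doxycycline-dependent plasmid. The study made 2 knockout lines, and the labels do not say which line each KO library came from. All organoids, WT included, passed through neural induction with inhibitors of BMP and TGF-beta receptors and were then patterned with BMP7 and a MEK inhibitor. Each genotype was collected at day 25 and at day 30, with 2 libraries in each of the 6 groups, 12 in all, and 3 pooled organoids in each library. Nothing in the labels says that the replicates were separate cultures, so p-values measure the spread between these samples, which may be technical.

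POU class III proteins bind DNA through a POU-specific domain joined by a linker to a POU homeodomain, and recognise octamer-like sequences, often beside a SOX protein. In the developing brain POU3F2 and POU3F3 are made in neural progenitors and in young neurons, are partly redundant in the cortex, and are needed for progenitor division and for the production and migration of upper-layer neurons. POU3F2 is also required in the neuroendocrine hypothalamus, and it is among the factors used to convert fibroblasts to neurons. The JUN gene encodes c-JUN, which pairs with FOS or ATF proteins to form AP-1.

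POU3F2 (ENSG00000184486) is listed on GRCh38 chromosome 6 at 98834574 to 98839458 on the plus strand, and POU3F3 (ENSG00000198914) on chromosome 2 at 104853287 to 104858574, also on the plus strand. Both have an intronless coding sequence. RefSeq (GRCh38.p14) gives a window of 250 bases before and 50 after a start site of each gene. The 250 bases before the start of POU3F2, chr6:98834324-98834573, are printed because the data concern how much of this transcript is made. Capitals mark matches to CCAAT, the box bound by NF-Y.
POU3F2 upstream window: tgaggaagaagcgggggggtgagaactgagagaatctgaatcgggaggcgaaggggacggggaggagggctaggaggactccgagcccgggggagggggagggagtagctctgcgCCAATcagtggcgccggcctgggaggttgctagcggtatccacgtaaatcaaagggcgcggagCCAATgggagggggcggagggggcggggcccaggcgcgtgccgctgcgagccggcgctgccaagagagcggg

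The RefSeq window of POU3F3, chr2:104853865-104854164, has its start site at 104854115, whereas RefSeq places the gene's first base at 104853276. The deposited position of the gene starts at 104853287. The window thus lies inside the gene by either position. Only the 30 bases around each of its CCAAT matches are printed, all on the plus strand, and the last stretches overlap.
POU3F3, chr2:104853943-104853972: attaaaaagcaaCCAATcggaacggccgga
POU3F3, chr2:104854000-104854029: attccgagcctgCCAATcacccagcgggta
POU3F3, chr2:104854019-104854048: cccagcgggtagCCAATcagcgggggccct

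Each window was searched on both strands. CCAAT matched 2 times in the window of POU3F2 and 3 times in that of POU3F3. Of 35116 RefSeq windows of the same 300 bases, 34.6% held at least 1 CCAAT, 10.8% at least 2 and 3.26% at least 3. The AP-1 site TGANTCA, the cAMP response element TGACGTCA and the octamer ATGCAAAT had no match in either window. They were found in 7.71%, 1.85% and 1.77% of all windows. A match is a match of letters and does not show binding, and the absence of these letters concerns these windows alone.

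The deposited values are normalized expression scores, whole numbers that ran from 11 to 9910 with a median of 106 in all 12 libraries. Read depth is unknown, and the values were not corrected for transcript length here, so the levels of different genes are not ranked against each other. JUN, the targeted gene, had scores of 139 and 153 in WT and 353 and 196 in KO at day 25, and of 128 and 162 in WT and 222 and 248 in KO at day 30. The libraries labelled KO were thus all above those labelled WT, so the RNA score of JUN does not show the knockout. Protein was not measured here, and every direction below between KO and WT rests on the labels. In OE, JUN was at 224 and 212 at day 25 and at 362 and 202 at day 30, which overlapped KO on both days. OE differed from KO in JUN by -0.27 on the log2 scale at day 25 and by 0.20 at day 30 (SE 0.323, adjusted p = 0.809, limma), so re-expression in OE also rests on the label. Across genes, KO replicates correlated with a Spearman's rho of 0.821 (day 25) and 0.769 (day 30), and the replicates of the other groups with 0.936 to 0.959. The library KO day 30 replicate 2 stood apart most: its rho to the others had a median of 0.745. The next lowest median was 0.83, for KO day 25 replicate 2. Of 15 thalamus markers, 7 were listed, among them TCF7L2, with scores between 109 and 465 over the 12 libraries. GBX2 and OLIG3 were not among the listed genes, so they were not analysed here. No listed gene had a score under 11 in any library, and the reason for the absence of these genes was not tested.

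At day 25 both genes had their lowest scores in KO. POU3F2 was at 284 and 265 in WT, at 135 and 71 in KO and at 258 and 480 in OE. The KO libraries lay below all others of that day, and the WT and OE libraries overlapped. The means were 274.5 ± 13.4 (SD, n = 2) in WT, 103 ± 45.3 (SD, n = 2) in KO and 369 ± 157 (SD, n = 2) in OE. On the log2(score + 1) scale, used for every difference given here, KO was lower than WT by a difference of -1.48, or 2.78-fold. OE differed from KO by 1.83 and from WT by 0.36.

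POU3F3 was at 271 and 203 in WT, at 90 and 26 in KO and at 182 and 273 in OE at day 25. Again the KO libraries lay below all others, and WT and OE overlapped. The score of 26, in KO day 25 replicate 2, was the lowest of either gene in any library. The means were 237 ± 48.1 (SD, n = 2) in WT, 58 ± 45.3 (SD, n = 2) in KO and 227.5 ± 64.3 (SD, n = 2) in OE. KO differed from WT by -2.25 on the log2 scale, or 4.75-fold, and this is the difference by which the genes were chosen. OE differed from KO by 2.18 and from WT by -0.07. Among all genes, both KO libraries lay below both WT libraries in 21.3% of cases, and both OE libraries lay above both KO libraries in 24.5%. In bulk RNA, fewer cells that express a gene and less RNA per cell cannot be told apart.

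**Figure D1:**
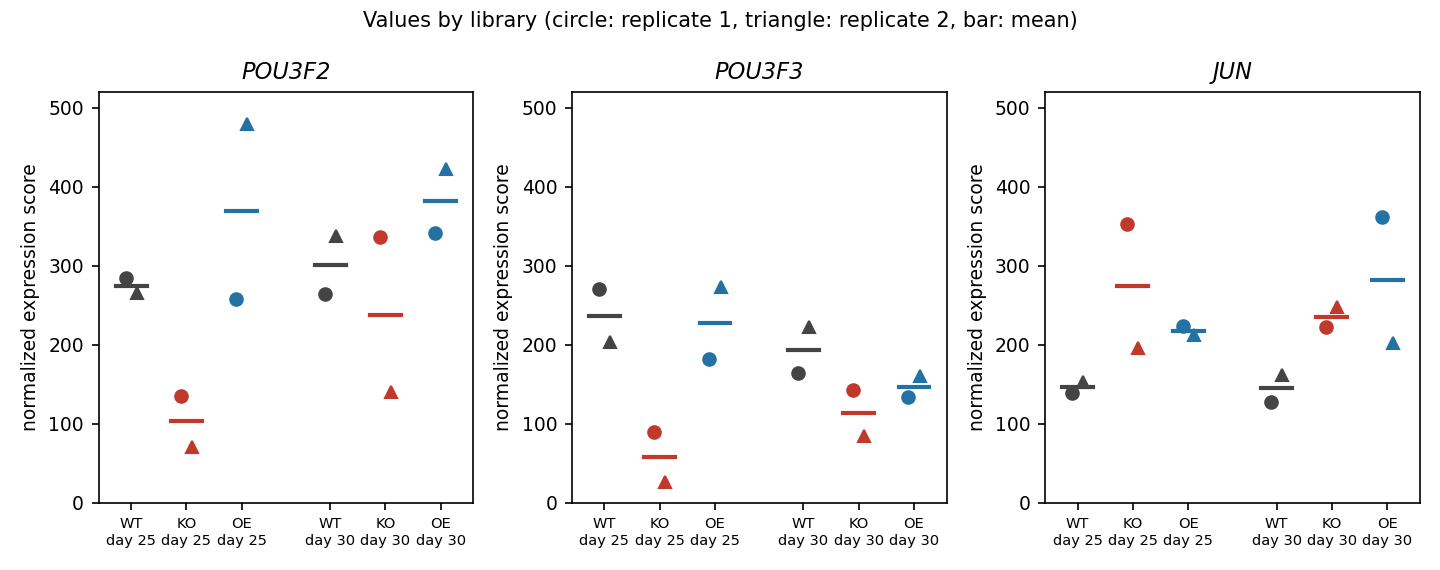
Normalized expression scores (vertical axis, no unit) of POU3F2, POU3F3 and JUN in each library, by genotype label and day (horizontal axis). Circles are replicate 1, triangles replicate 2 and bars the mean of 2 libraries. At day 25 the KO libraries lie lowest for POU3F2 (135 and 71) and POU3F3 (90 and 26), while JUN lies lowest in WT at both days.

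At day 30 the libraries that did not choose the genes could be tested, and neither gene passed in any of the 4 comparisons made. The spread used in these tests was pooled over all 12 libraries, those of KO and WT at day 25 included. POU3F2 was at 264 and 338 in WT, at 336 and 140 in KO and at 341 and 422 in OE. KO replicate 1 stood just under the upper WT library and KO replicate 2 below every other library of that day, so KO and WT overlapped. The means were 301 ± 52.3 (SD, n = 2) in WT, 238 ± 139 (SD, n = 2) in KO and 381.5 ± 57.3 (SD, n = 2) in OE. For KO against WT the log2 difference of POU3F2 was -0.46 (SE 0.429, 95% confidence interval -1.40 to 0.48, adjusted p = 0.728, limma over all genes). Its direction rested on KO replicate 2: without that library the difference was 0.17, and without KO replicate 1 it was -1.09.

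POU3F3 at day 30 was at 164 and 222 in WT, at 143 and 85 in KO and at 134 and 160 in OE. Both KO libraries lay below both WT libraries, which 17.4% of all genes did. The means were 193 ± 41 (SD, n = 2) in WT, 114 ± 41 (SD, n = 2) in KO and 147 ± 18.4 (SD, n = 2) in OE. The log2 difference of POU3F3 between KO and WT was -0.79 (SE 0.486, 95% confidence interval -1.85 to 0.28, adjusted p = 0.646, limma). It was negative with each library left out, from -1.16 without KO replicate 1 to -0.41 without KO replicate 2. A call needed both a 2-fold change and an adjusted p under 0.05, and limma called 0% of the 9497 genes between KO and WT at day 30. At an unadjusted p under 0.05, 699 genes passed, and with 2-fold as well 279. The intervals of both genes include 0 as well as a fall of more than 2-fold, so these libraries show neither a difference nor its absence.

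OE was compared with KO, from which it differs by label in the added c-JUN. At day 30 both OE libraries were above both KO libraries for POU3F2, as for 18.7% of all genes, with 341 in the lower OE library and 336 in the higher KO library. The log2 difference of POU3F2 was 0.80 (SE 0.429, 95% confidence interval -0.14 to 1.74, adjusted p = 0.491, limma). Without KO replicate 1 it was 1.43 with an adjusted p of 0.0417 by limma, and without KO replicate 2 it was 0.17 with an adjusted p of 1. Over all alternatives the adjusted p of this difference ran from 0.0417 to 1. The POU3F3 libraries of OE and KO overlapped, with a log2 difference of 0.41 (SE 0.486, 95% confidence interval -0.66 to 1.47, adjusted p = 0.74, limma). That of POU3F3 was 0.03 without KO replicate 2 and 0.78 without KO replicate 1. In this comparison limma called 0.0842% of all genes, 8 in number and all lower in OE.

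Between OE and WT at day 30 the genes stood on opposite sides. For POU3F2 both OE libraries were above both WT libraries, with 341 against 338 at the nearest, as for 21.0% of all genes. For POU3F3 both OE libraries were below both WT libraries, with 160 against 164 at the nearest, as for 21.8% of all genes. The log2 difference was 0.34 for POU3F2 (SE 0.429, 95% confidence interval -0.60 to 1.29, adjusted p = 1, limma). It was -0.38 for POU3F3 (SE 0.486, 95% confidence interval -1.45 to 0.69, adjusted p = 1, limma). Neither passed, with a spread drawn partly from the KO libraries. With only the OE and WT libraries of day 30 fitted, the SE was 0.179 for POU3F2 and 0.205 for POU3F3. Neither passed there (adjusted p = 0.479 and 0.487, limma). Whether the differences of the 2 genes differ from each other was not tested. Limma called 0.0316% of all genes here, 3 in number and all lower in OE.

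**Figure D2:**
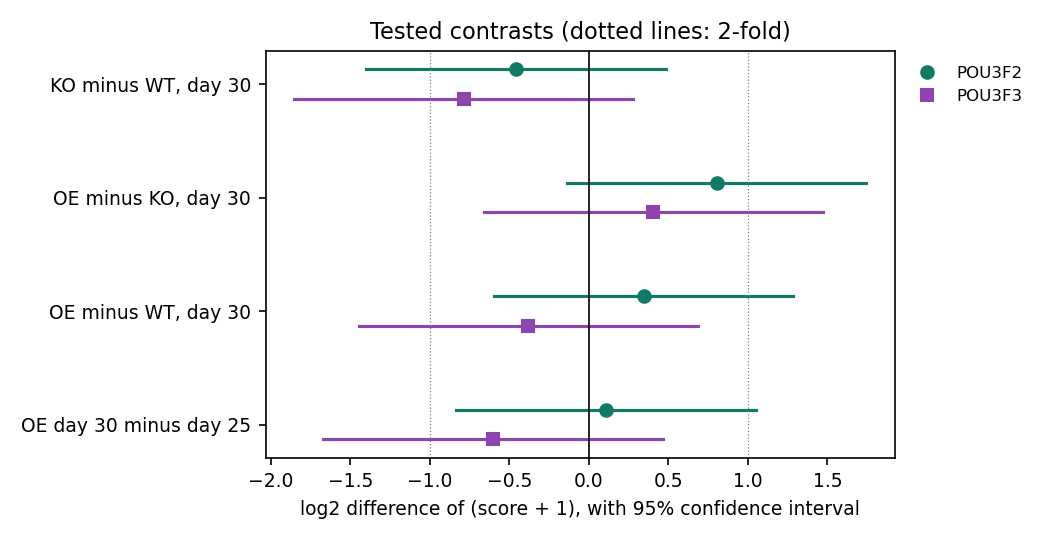
Log2 differences of POU3F2 (circles) and POU3F3 (squares) in the 4 tested comparisons, on the log2(score + 1) scale (horizontal axis), with 95% confidence intervals from limma as lines. All 8 intervals include 0, and the estimate farthest from 0 is that of POU3F2 for OE minus KO (0.80).

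Between the days each genotype gave its own values. In WT, POU3F2 went from a mean of 274.5 to 301 and POU3F3 from 237 to 193, log2 differences of 0.12 and -0.30, with overlapping libraries for both genes. In KO, the means were higher at day 30 by 1.14 for POU3F2 and 1.17 for POU3F3, or 2.20-fold and 2.25-fold. Both day 30 libraries of KO were above both of day 25 for POU3F2, which 15.6% of all genes showed, whereas for POU3F3 the score of 85 at day 30 lay under the 90 of day 25. These WT and KO differences use the libraries that chose the genes and were not tested.

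In OE the comparison between days was open to a test. The POU3F2 libraries overlapped, and its log2 difference was 0.11 (SE 0.429, 95% confidence interval -0.83 to 1.05, adjusted p = 1, limma). Its sign depended on single libraries, since it was -0.34 without OE day 25 replicate 1 and -0.05 without OE day 30 replicate 2. Both POU3F3 libraries of OE were lower at day 30 than at day 25, as for 19.4% of all genes, with a log2 difference of -0.60 (SE 0.486, 95% confidence interval -1.67 to 0.46, adjusted p = 1, limma). With only the OE libraries fitted, the SE was 0.302 for POU3F2 and 0.234 for POU3F3. For POU3F3 the unadjusted p was then 0.0425 and the adjusted p 0.627 (limma), and neither gene passed. In the main fit limma called 0% of all genes between the days of OE, while 180 had an unadjusted p under 0.05.

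Ordered by the group mean, POU3F2 ran from OE at day 30 (381.5) through OE at day 25 (369), WT at day 30 (301), WT at day 25 (274.5) and KO at day 30 (238) to KO at day 25 (103). Each neighbour in this order overlapped the next except the last pair. POU3F3 ran from WT at day 25 (237) through OE at day 25 (227.5), WT at day 30 (193), OE at day 30 (147) and KO at day 30 (114) to KO at day 25 (58). Here the only neighbours that did not overlap were WT and OE at day 30. KO at day 25 was thus last for both genes, while the group at the head differed.

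The widest distances between replicates were in KO. The replicates of POU3F3 in KO at day 25 were 3.37-fold apart, a gap of 1.75 on the log2 scale that 3.15% of all genes reached in that group. Those of POU3F2 in KO at day 30 were 2.39-fold apart, a gap of 1.26 that 12.7% of all genes reached. The other KO gaps were 0.92 for POU3F2 at day 25, which 20.5% of all genes reached, and 0.74 for POU3F3 at day 30, which 34.2% reached. In WT the replicates were 1.07-fold to 1.35-fold apart for the 2 genes over both days. POU3F2 in OE at day 25 was 1.86-fold apart, a gap that 3.44% of all genes reached in that group, against a median gap of 0.20 over all genes. Replicate 2 was the lower library of KO for both genes on both days.

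Across all 12 libraries the scores of POU3F2 and POU3F3 went together, but the correlation over all libraries rested on the KO libraries. Pearson's r of their log2 values was 0.88 and Spearman's rho 0.59. Of the 9496 other genes, 71 had a higher r with POU3F2 than POU3F3 had, and 44 had a higher r with POU3F3 than POU3F2 had. Without KO day 25 replicate 2, r was 0.73. Without KO day 25 replicates 1 and 2, the libraries farthest from the median of POU3F2, r was 0.62. Over the 8 WT and OE libraries r was 0.16 and rho 0.12. With each library centred on its group mean r was 0.86, so replicates of a group tended to be high or low together. In every group, those of WT and OE included, the replicate with the higher POU3F2 also had the higher POU3F3. The libraries share genotypes and days, so they are not independent points and no p is given. Each r over the 12 libraries, here and below, includes the KO and WT libraries of day 25 by which the genes were chosen.

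**Figure D3:**
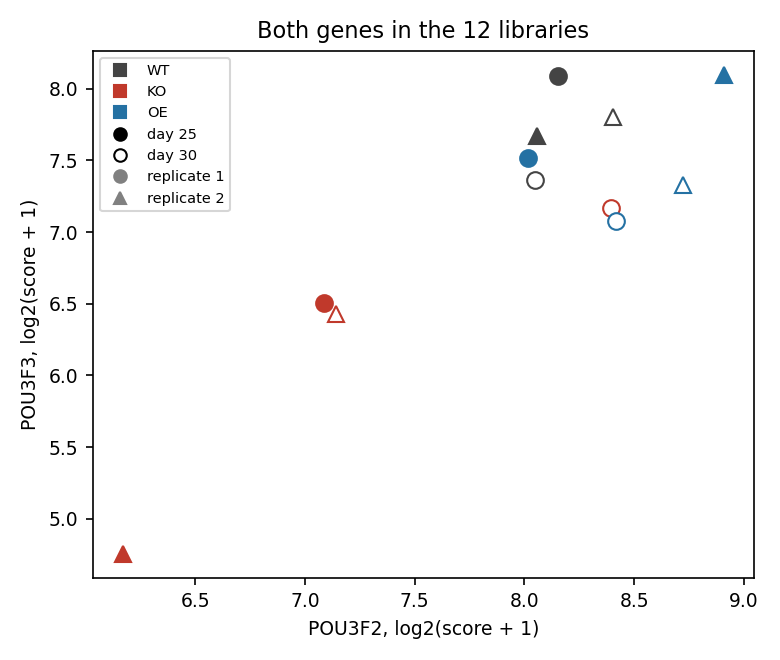
Log2(score + 1) of POU3F2 (horizontal axis) against POU3F3 (vertical axis) in the 12 libraries. Colours mark the genotype label, filled symbols day 25, open symbols day 30, circles replicate 1 and triangles replicate 2. KO day 25 replicate 2 lies at the lower left, KO day 25 replicate 1 and KO day 30 replicate 2 lie together between it and the rest, and the 8 WT and OE libraries show little common slope (r of 0.16).

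The ratio of the genes was taken within each library, as a description. In these terms the POU3F3 score divided by the POU3F2 score was 0.954 and 0.766 in WT at day 25 and 0.621 and 0.657 in WT at day 30. In KO it was 0.667 and 0.366 at day 25 and 0.426 and 0.607 at day 30. In OE it was 0.705 and 0.569 at day 25 and 0.393 and 0.379 at day 30. The day 30 ratios were below those of day 25 in WT and in OE, and those of KO overlapped between the days. The WT and KO ratios of day 25 use scores by which the genes were chosen, and no ratio was tested. Because gene length was not corrected for, a ratio can be set against another library's and not read as a ratio of transcripts.

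The genes most like each factor were sought by Pearson's r over the 12 libraries, as a description. For POU3F2 they were SCD (r of 0.97), a desaturase of fatty acid synthesis, BAZ1B (0.95), a chromatin remodelling subunit, TMSB15A (0.95), a thymosin that binds actin, NRCAM (0.94), an adhesion molecule of axons, and AK4 (0.94), a mitochondrial adenylate kinase. NRCAM kept an r of 0.95 over the 8 WT and OE libraries, whereas that of BAZ1B was 0.61 there. NRCAM had 154 and 135 in WT, 120 and 66 in KO and 147 and 222 in OE at day 25, and 143 and 194, 204 and 74, and 176 and 236 at day 30. Like POU3F2, it was lowest in KO day 25 replicate 2, and it was next lowest in KO day 30 replicate 2.

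For POU3F3 the most similar genes were CCND2 (r of 0.96), a cyclin of the G1 phase, ZNF160 (0.95), CTCF (0.95), the insulator and chromatin loop protein, SORCS2 (0.94), a sortilin-type receptor, and TNPO2 (0.94), a nuclear import receptor. CCND2 kept an r of 0.94 over the WT and OE libraries, and that of TNPO2 was 0.41. CCND2 had 1157 and 1043 in WT, 709 and 480 in KO and 1042 and 1212 in OE at day 25, and 822 and 1010, 764 and 649, and 786 and 895 at day 30. For CCND2 as for POU3F3, the lowest library was KO day 25 replicate 2, followed by KO day 30 replicate 2 and KO day 25 replicate 1. By the mean of both correlations the leading genes were BAZ1B (0.93), SCD (0.92), HNRNPH1 (0.92), RNF165 (0.91) and TNPO2 (0.91). The 5 genes most like POU3F2 and the 5 most like POU3F3 had none in common.

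The genes most opposite to POU3F2 were MLLT1 (r of -0.95), a subunit of the super elongation complex, SHISAL1 (-0.94) and DNAH6 (-0.92), an axonemal dynein. Those most opposite to POU3F3 were NDUFA8 (-0.93), a subunit of respiratory complex I, BAIAP3 (-0.93) and MLLT1 (-0.92). MLLT1 was the one gene on both lists. It was highest in KO day 25 replicate 2 (1132) and KO day 30 replicate 2 (808), libraries in which both factors were low. JUN had an r of -0.17 with POU3F2 and of -0.34 with POU3F3.

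**Figure D4:**
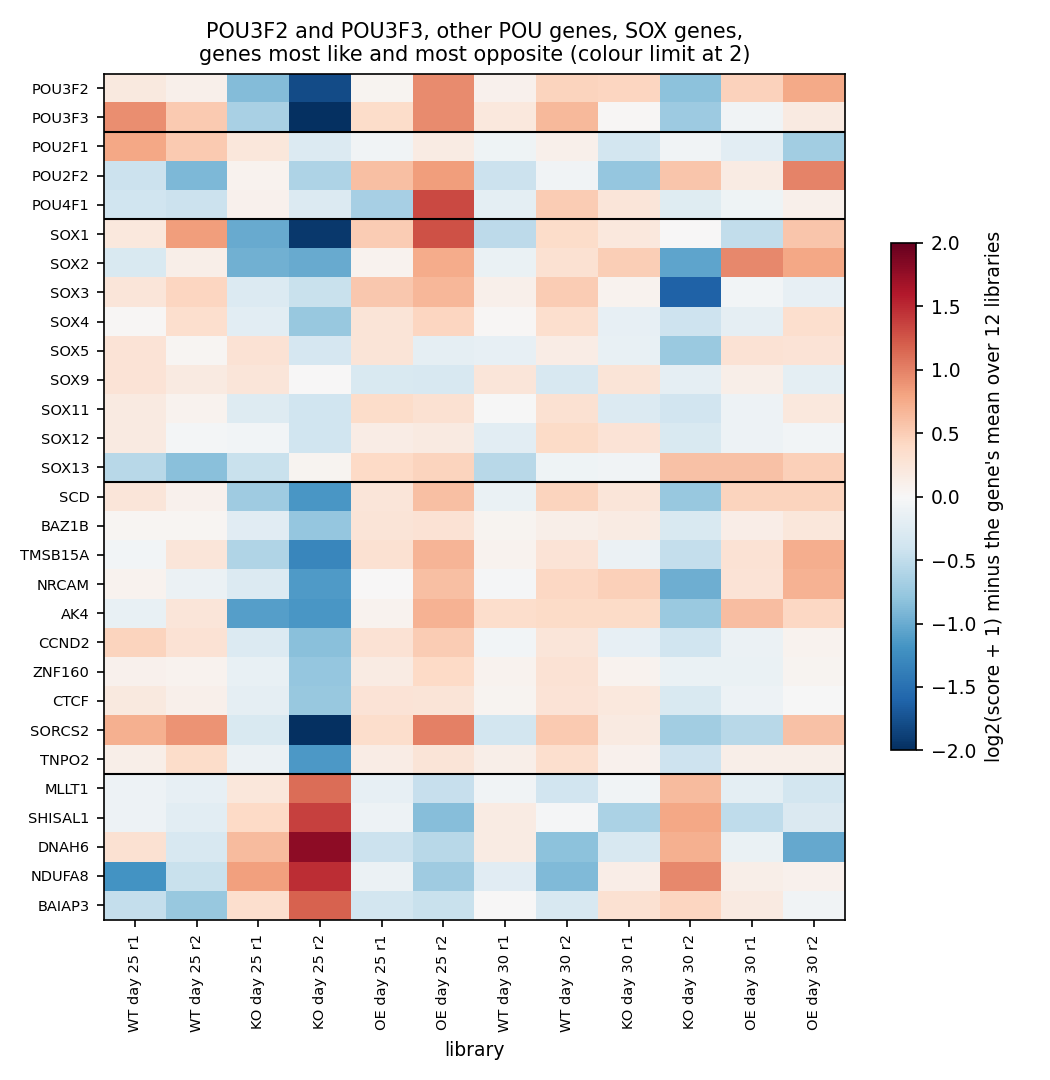
Log2(score + 1) minus the gene's mean over the 12 libraries (colour, limited to 2 in either direction) for POU3F2 and POU3F3, other POU genes, SOX genes, the 5 genes most like each factor and the 3 most opposite to each (rows), by library (columns, r1 and r2 for the replicates). KO day 25 replicate 2 is the column with the lowest values of both factors and of their most similar genes.

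Of 14 other POU domain genes, 3 were listed, and POU3F1 and POU3F4, the remaining members of class III, were not analysed here. POU2F1, a broadly expressed octamer factor, had scores between 76 and 211. POU2F2 had scores between 22 and 84, and POU4F1, a factor of habenular and sensory neurons, between 58 and 232. None of the 3 was called in a tested comparison. At day 30 the log2 differences between KO and WT were -0.23 for POU2F1, 0.13 for POU2F2 and -0.15 for POU4F1, and those between OE and KO were -0.24, 0.69 and 0.01. At day 25, the differences between KO and WT ran from -0.67 for POU2F1 to 0.39 for POU2F2. The median r of the 3 genes was 0.30 with POU3F2 and 0.28 with POU3F3, and 0.72 and 0.40 over the 8 WT and OE libraries.

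SOX proteins share DNA sites with class III POU factors, and 9 of 13 SOX genes were listed. None was called in a tested comparison. At day 25, 8 of the 9 were lower in KO than in WT, with a median log2 difference of -0.45 against -0.02 over all genes. At day 30, 6 of 9 were lower, with a median of -0.37 against 0.00 over all genes, from -1.08 for SOX3 and -0.47 for SOX11 to 0.19 for SOX1 and 0.57 for SOX13. Between OE and KO at day 30 the median was 0.36, with 1.15 for SOX2, 0.73 for SOX5, -0.08 for SOX1 and -0.07 for SOX9. SOX2, the progenitor factor that pairs with POU3F2 on neural enhancers, had the highest r of the list with POU3F2 (0.90), and SOX4 had the highest with POU3F3 (0.88). The median r of the 9 genes was 0.69 with POU3F2 and 0.65 with POU3F3. Over the 8 WT and OE libraries these medians were 0.22 and 0.49. SOX2 was at 220 and 293 in WT, 139 and 134 in KO and 284 and 454 in OE at day 25, and at 248 and 334, 382 and 130, and 531 and 465 at day 30. The KO replicates of day 30 lay far apart, as for POU3F2, with replicate 1 above WT and replicate 2 below it.

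Of 9 genes whose regulatory regions class III POU factors have been linked to, 4 were listed, and none was called in a tested comparison. NES, the intermediate filament of progenitors, had an r of 0.81 with POU3F2 and 0.89 with POU3F3. It was at 1159 and 340 in KO at day 25, against 1082 to 1604 in the WT and OE libraries. In KO at day 30 it was at 1259 and 1130. NES was thus low only in KO day 25 replicate 2, a library by which the factors were chosen. At day 30 its log2 difference was -0.01 between KO and WT and 0.09 between OE and KO. DAB1, the adaptor of reelin signalling, had a log2 difference of -1.06 between KO and WT at day 30 and 0.11 between OE and KO. The other listed genes were CDK5R1, with -0.62 and 0.11, and RELN, with 0.02 and -1.02. Their r with POU3F2 was -0.27 and -0.10. The median r of the 4 genes was -0.05 with POU3F2 and 0.25 with POU3F3. Over the 8 WT and OE libraries these medians were -0.27 and 0.74. The median difference of the 4 genes was -0.32 between KO and WT and 0.10 between OE and KO at day 30.

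Of 10 proneural and reprogramming partners of POU3F2, 6 were listed and none was called in a tested comparison. INSM1, a factor of newborn neurons, had the highest r of the list with POU3F2 (0.77) and with POU3F3 (0.88). MYT1L had the lowest r of the list with POU3F2 (-0.45). The median r of the 6 genes was 0.56 with POU3F2 and 0.49 with POU3F3. Over the 8 WT and OE libraries these medians were -0.05 and 0.12. At day 30 the log2 difference between KO and WT was 1.52 for ZIC1, -0.41 for INSM1 and -0.76 for MYT1. Between OE and KO it was 0.98 for MYT1, 0.34 for INSM1, -0.89 for MYT1L and -1.46 for ZIC1. ZIC1 was at 9910 in KO day 30 replicate 1 and between 1083 and 2672 in the other libraries.

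Progenitor genes were compared with the factors by correlation. Of 20 radial glia and progenitor genes, 16 were listed, and their median r was 0.74 with POU3F2 and 0.63 with POU3F3, against 0.03 over all genes for both. Over the 8 WT and OE libraries these medians were 0.38 and 0.15. The r over all libraries use those of day 25 that chose the genes, when 15 of the 16 were lower in KO than in WT. The median log2 difference of the 16 genes was then -0.92, against -0.02 over all genes. SOX2, SOX9 and NES are also on the lists above, so these lists are not separate evidence. VIM, an intermediate filament, was at 9910 in WT day 25 replicate 1 and between 2670 and 3456 elsewhere, and was left out of the sums, a choice made after its values were seen. The summed score of the other 15 genes at day 25 was 7877 and 9157 in WT, 6215 and 3848 in KO and 6800 and 9892 in OE. At day 30 it was 7106 and 8479 in WT, 8829 and 4413 in KO and 8316 and 7936 in OE. The KO libraries of replicate 2 held the lowest sums of all 12, and also the lowest scores of POU3F3. PTPRZ1, a receptor phosphatase of radial glia, had an r of 0.90 with POU3F2, and MKI67, a marker of dividing cells, of 0.87. Not all members went this way. SOX9 had -0.21 with POU3F2 and -0.13 with POU3F3, PROM1 had -0.20 and -0.37, and CDH2 had 0.01 with POU3F2. None of the 16 was called in a tested comparison. At day 30, 14 of 16 were lower in KO than in WT, with a median of -0.43 against -0.003 over all genes. The lowest values were those of TNC (-1.49) and PTPRZ1 (-1.20), and the highest 0.00 for VIM and 0.08 for SOX9. Between OE and KO the median was 0.41, from -0.66 for TNC and -0.59 for PAX6 to 1.32 for QKI and 1.58 for NOTCH1. The part of progenitor content in the scores of POU3F2 and POU3F3 was not tested.

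The same was done for early neuron genes. All 15 were listed, with a median r of 0.20 with POU3F2 and 0.00 with POU3F3, and of 0.29 and -0.20 over the 8 WT and OE libraries. The difference between these genes and the progenitor genes was not tested. The highest was NCAM1 with 0.80 and 0.79. At day 25, 11 of 15 were higher in KO than in WT, with a median of 0.32. At day 30, 10 of 15 were lower and the median was -0.08, with ELAVL3 at -1.75, ELAVL4 at -0.74, STMN4 at 0.15 and GAP43 at 0.45. ELAVL3 was at 275 and 260 in WT and at 245 and 25 in KO, so its difference rested on KO day 30 replicate 2. SYT4, a synaptotagmin of dense-core vesicles, was the only one called. At day 30 it fell in OE, with a log2 difference of -1.37 from KO (SE 0.208, adjusted p = 0.0475, limma) and of -2.08 from WT (SE 0.208, adjusted p = 0.00567, limma). With OE replicate 2 left out no gene was called against KO, and with any single library left out none was called against WT. SYT4 had an r of -0.37 with POU3F2. Between OE and KO the values farthest from 0 were otherwise -0.59 for GAP43, 0.84 for ELAVL4 and 2.03 for ELAVL3, the latter again with KO replicate 2 at 25.

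Few regional markers were listed. Of 15 telencephalon and cortical layer genes 3 were listed (CUX1, CUX2 and MEF2C), of 10 neuroendocrine hypothalamus genes 1 (ARNT2), and of 10 mid- and hindbrain genes 1 (OTX2). None of these was called. CUX1, a factor of upper-layer neurons, had an r of 0.37 with POU3F2 and of 0.69 with POU3F3. OTX2 had 0.40 and 0.51, and ARNT2, the dimer partner of SIM1, had 0.04 and 0.38. The 7 listed thalamus genes had a median r of 0.49 with POU3F2 and 0.35 with POU3F3, led by IRX3 with 0.69 and 0.65. None of the 7 was called, and at day 30 their median difference was -0.18 between KO and WT and 0.27 between OE and KO.

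Markers of other cells that an organoid can hold were compared with the factors too. Of 21 roof plate and choroid plexus genes 16 were listed, with a median r of -0.51 with POU3F2 and -0.44 with POU3F3, and of -0.23 and -0.18 over the 8 WT and OE libraries. RSPO2, a secreted enhancer of WNT signalling, went the other way, with the highest r of the list (0.71 and 0.80). At day 25 it was at 436 and 580 in WT, 26 and 28 in KO and 1606 and 678 in OE. At day 30 it was at 328 and 455 in WT, 112 and 54 in KO and 78 and 460 in OE, and it was not called. The median difference of the 16 genes between KO and WT was 0.44 at day 25 and 0.69 at day 30. CLDN1, a tight junction claudin, was the one called, and it fell in OE against KO at day 30, with a log2 difference of -3.21 (SE 0.496, adjusted p = 0.0479, limma). It was at 372 and 438 in KO and at 82 and 22 in OE. With only these 2 groups fitted, limma called 0 genes, so the call of CLDN1 depended on the fit. The summed scores of the 16 genes overlapped between the genotypes of a day except for KO above WT at day 25 (4847 and 7949 against 3793 and 4571). Of 10 mesenchyme genes 3 were listed, COL1A2, PDGFRA and PDGFRB, and none was called. For KO their summed score was 504 and 1120 at day 25 and 309 and 602 at day 30, and over both days it was 283 to 502 in WT and 182 to 410 in OE. COL1A2, a fibrillar collagen, had an r of -0.91 with POU3F2 and of -0.81 with POU3F3. It was highest in KO day 25 replicate 2 (734), where both factors were lowest. Between KO and WT at day 25 COL1A2 differed by 1.37, PDGFRA by -0.29 and PDGFRB by 0.02, and at day 30 they differed by 0.97, 0.16 and -0.40. None of the 6 pluripotency genes was listed. The part of other cell types in the scores of POU3F2 and POU3F3 was not tested.

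Glycolysis and hypoxia genes, 12 of 14 listed, had a median r of 0.77 with POU3F2 and 0.54 with POU3F3, and of 0.54 and -0.29 over the 8 WT and OE libraries. SLC2A1, the glucose transporter, led with 0.91 and 0.78. Its KO scores were 158 and 112 at day 25 and 804 and 168 at day 30, so that at day 30 it too was high in replicate 1 and low in replicate 2. None of the 12 was called. Their median difference was -0.30 between KO and WT at day 25 and -0.46 at day 30, and 0.41 between OE and KO at day 30. The part of metabolic state in the scores of the factors was not tested. Of 9 JUN and AP-1 genes 3 were listed (JUN, JUND and ATF3), with r between -0.34 and 0.16 with the factors, and none was called.

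Genes that lie near the factors were examined by position. Within 1 Mb of POU3F2, the listed genes were FBXL4, 29.1 kb beyond its end, FAXC, PNISR and CCNC. FBXL4 had an r of 0.03 with POU3F2 and scores between 66 and 142. FAXC had -0.70, PNISR 0.71 and CCNC -0.32. PNISR was at 510 and 506 in WT and at 345 and 326 in KO at day 25. Within 1 Mb of POU3F3 the listed genes were MRPS9, 179 kb beyond its end, TGFBRAP1, C2orf49 and NCK2, with r of -0.14, -0.19, 0.47 and -0.64. Of 12 genes of both neighbourhoods that had been named in a list, 7 were listed. MMS22L had an r of 0.48 with POU3F2, and TMEM182 had 0.02 with POU3F3. None of the 7 was called in a tested comparison, and their median difference was -0.34 between KO and WT and 0.13 between OE and KO at day 30.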

How the data were processed

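RNA-seq values of 12 ThO libraries were analysed. The authors deposited 1 table per library, with a position, a symbol and 1 value per gene. The deposited value is a normalized expression score, rounded to whole numbers by the authors. The submitters' processing notes name bcl2fastq, RSEM, Bowtie2 and hg19 with no role, while 9386 of 9386 symbols matched to RefSeq overlap their GRCh38.p14 position. The normalization is not given in the sources used here. The minimum, median and maximum were the same in all libraries, so no shift of all genes could be seen. Depth is unknown, so no counting interval was made.

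Scores were analysed as log2(score + 1) with limma 3.58.1 in R 4.3.3, which slightly understates changes of low genes. One fit held the means of 6 groups (6 residual and 5.29 prior degrees of freedom, with an intensity trend), and two-sided p-values received a Benjamini-Hochberg adjustment over 9497 genes. A filter of a score of at least 1 in 2 libraries removed no gene. KO was given the same spread as the other groups. The steps were run on simulated data in which every group, KO included, had the same spread, so the wider spread of KO was not tried. No count model was used, since the values are not counts.

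The members and the 16 gene lists were chosen with earlier results of these data known. Named were POU3F2, POU3F3 and JUN, the 5 genes with the highest and the 3 with the lowest Pearson's r with each factor, the 5 with the highest mean r, the called genes of each list, and the 2 largest day 30 differences in each direction. Of the regional, other cell type, metabolic and AP-1 lists the text gives counts and genes with the highest r. PNISR, CCNC, NCK2 and the CUX1, NES, MKI67, SLC2A1, COL1A2, PDGFRA and NCAM1 values were picked after they were seen. Correlations were computed with Python 3.11 and numpy. Promoter windows came from RefSeq. The 11 ATAC-seq and CUT&Tag samples were not analysed here. One gene of the proneural list is not reported here.

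Alternatives were pseudocounts of 0.1 and 5, no filter, a mean score of at least 50, quantile normalization, median centring, library weights, a block for the replicate number, a fit of only the compared groups, and each library left out. Correlations without the KO libraries and the progenitor sum without VIM were added after the data were seen.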

Additional observations from a re-analysis of the deposited data

How the results depend on the processing

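POU3F3 kept its direction in all 4 tested comparisons under every alternative, and so did POU3F2 except when single libraries were left out. The filters, median centring, library weights, replicate block and fit of only the compared groups returned unchanged differences of group means. Those settings could therefore not change a direction. Where the compared libraries did not overlap, leaving out a single library could not change it either. POU3F2 changed sign for KO minus WT at day 30 without KO replicate 2 (0.17), and for OE day 30 minus day 25 without OE day 25 replicate 1 (-0.34) and without OE day 30 replicate 2 (-0.05). With single libraries left out, POU3F2 ran from -1.09 to 0.17 for KO minus WT, from 0.17 to 1.43 for OE minus KO, where it passed without KO replicate 1 (1.43, adjusted p = 0.0417, limma), and from -0.34 to 0.55 between the days of OE. In those fits the lone library of a group was assumed to vary like the others.

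The number of genes called moved more. For KO minus WT at day 30 it was 0, and 0 to 1078 with single libraries left out, 1078 without KO replicate 1 and 1 without KO replicate 2. For OE minus KO it was 8, and 0 to 1441 with single libraries left out (1441 without KO replicate 1, 3 without KO replicate 2, 4 without OE replicate 1 and 0 without OE replicate 2), 1 with library weights and 0 with only the 2 groups compared. For OE minus WT it was 3, and 0 with any library left out, 52 with library weights and 6 with only the 2 groups compared. Library weights called 1 gene between the days of OE. The causes were not tested.

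The replicate block gave 13 genes for OE minus KO and changed no call of POU3F2 or POU3F3. The deviations of replicates with the same number correlated at -0.02 for WT with KO, -0.07 for KO with OE and 0.26 for WT with OE at day 30, and at -0.04 between the days of OE, so the numbers are not shown to pair the libraries.

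The 5 genes most like a factor depended on single libraries: with each left out, 1 to 5 of them stayed for either factor, and with group means removed 1 stayed for POU3F2 and 0 for POU3F3.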
